A study of Drosophila melanogaster with 3 samples.

Results

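The 3 genes described here, wal, CG15738 and CG3267, encode proteins of mitochondrial metabolism, and each left an intronic RNA in the unfertilized egg of Drosophila melanogaster. They were chosen by gene symbol for their function, with their read counts already known, so their counts, ranks and hexamers below are descriptions without a test. All 3 are among the 295 host genes of the longer deposited list and among the 140 entries of the counted list. The eggs came from y w females, a strain that carries the yellow and white markers, and all 3 libraries share this genotype and stage. One library each was made from rRNA-depleted total RNA, from its polyA-plus fraction and from its polyA-minus fraction. The read counts stand in 1 column that names no library, so no value has a replicate or can be given to a fraction. The lists give no library totals, so sequencing depth is unknown.

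A stable intronic sequence RNA (sisRNA) is an intron-derived RNA that outlasts splicing. An unfertilized egg makes almost no new RNA, so the RNA it holds was supplied by the mother. The egg also inherits its mitochondria from the mother, and in Drosophila these are known to enter a state of low respiration late in oogenesis. The 3 hosts act at different steps of mitochondrial energy metabolism. Electron transfer flavoprotein, whose alpha subunit is encoded by wal (walrus), collects electrons from the acyl-CoA dehydrogenases that break down fatty acids and some amino acids, and passes them on towards ubiquinone. CG15738 is annotated as sicily, the fly counterpart of human NDUFAF6, which is needed to assemble complex I, the entry point of NADH electrons into the respiratory chain. CG3267 is annotated as Mccc2, a subunit of methylcrotonoyl-CoA carboxylase, a mitochondrial enzyme of leucine breakdown.

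By rank the 3 sisRNAs spanned most of the list. The wal sisRNA had 454 reads (exact Poisson 95% interval 413 to 498), the CG15738 sisRNA 172 (147 to 200) and the CG3267 sisRNA 21 (13.0 to 32.1). The intervals cover counting error only and understate the error, because several reads can stem from 1 molecule. Over all 140 entries the read count ran from 8 to 869 with a median of 48 and quartiles of 25.8 and 88.8. By count wal therefore ranked 3, CG15738 ranked 11 and CG3267 ranked 113, with no other entry at the same count. Together they held 647 of 11169 listed reads (5.79%, exact 95% interval 5.37% to 6.24%), and wal alone held 70.2% of the 647 (66.5% to 73.7%).

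**Figure D1:**
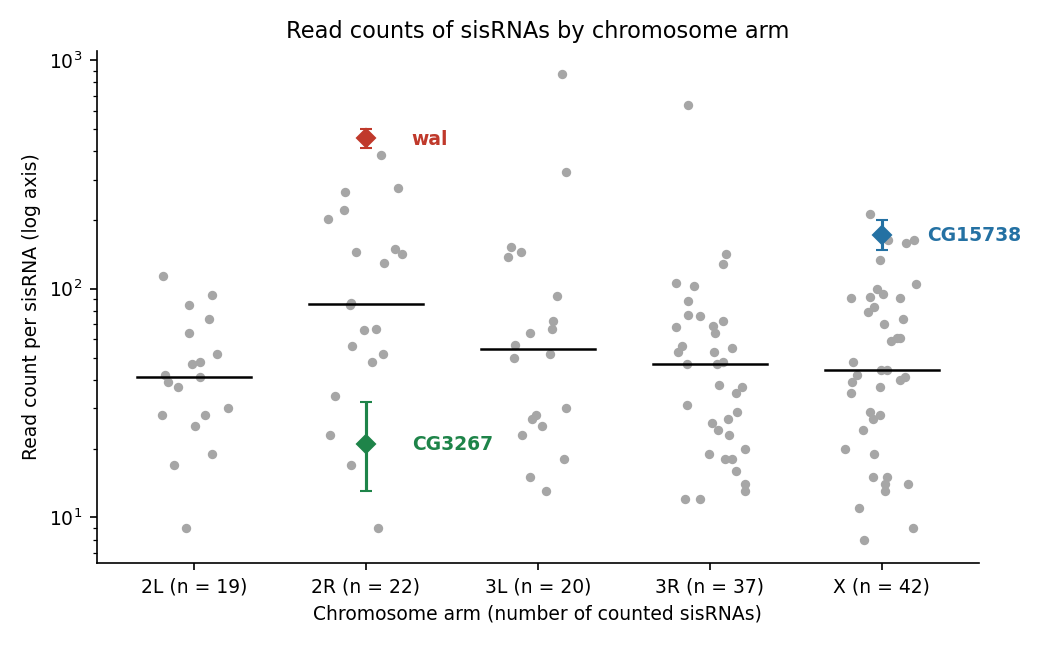
Read count per sisRNA (log axis) for the 140 counted entries by chromosome arm. Grey points are single sisRNAs, black lines are arm medians, and diamonds with exact Poisson 95% intervals are wal (454 reads), CG15738 (172) and CG3267 (21). The highest point of arm 2R is wal, and CG3267 is among the lowest there.

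The counts of the 3 members lay apart. The intervals of their ratios cover counting error only and, as above, understate the error. Since the members were chosen with their counts known, no test was made. The wal count was 2.64 times that of CG15738 (exact 95% interval 2.21 to 3.16) and 21.6 times that of CG3267 (13.97 to 35.3). The CG15738 count was 8.19 times that of CG3267 (5.19 to 13.6). These are ratios of read counts, not of RNA levels, because the lengths of the sisRNAs are unknown from these lists.

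The wal sisRNA, centred near position 7577769 on arm 2R (all positions in dm3), stood almost alone at its count. The next higher entry, RpL35A with 638 reads (589 to 689), had an interval above that of wal. The next lower entry was the cohesin loader gene Nipped-B with 383 reads (346 to 423). Nipped-B was the only entry of the list whose interval overlapped that of wal, and the intervals of 136 entries lay wholly below it. The wal count was the highest of the 22 on arm 2R, whose counts ran from 9 to 454 with a median of 86, and it made up 15.5% of the 2931 reads listed for that arm.

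The CG15738 sisRNA, centred near 11786652 on X, lay in a denser part of the list. Its neighbours by count were CG1399 with 201 reads (174 to 231) and corp with 164 (140 to 191). The intervals of 16 entries, with 128 to 222 reads, overlapped its own, so its rank of 11 was not resolved at this depth. The intervals of 7 entries lay above and those of 116 below. Among the 42 sisRNAs of X, with counts from 8 to 212 and a median of 44, only CG2938 was higher, with 212 reads (184 to 243). CG15738 held 6.42% of the 2680 reads listed for X.

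The CG3267 sisRNA, centred near 2634510 on 2R, had few reads. The next higher count, 23 reads (14.6 to 34.5), was shared by CG1172, Cip4 and Gprk1, and the next lower, 20 reads (12.2 to 30.9), by CG14414 and CG5514. No entry had an interval below that of CG3267, 63 entries with 8 to 44 reads overlapped it, and 76 lay above it. On 2R it ranked 20 of 22, above san with 17 reads and botv with 9. The same arm thus held both the highest of its counts, wal, and one of its 3 lowest, CG3267.

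The lists also record the hexamers of the poly(A) signal, the sequence that directs cleavage and polyadenylation of an RNA, that were found for each entry. Each member had a different record, and the record was the same in both lists. The entry for wal carried the variant auuaaa alone. The entry for CG15738 carried no hexamer. The entry for CG3267 carried only aauaaa, the canonical signal. The stretch that was searched for hexamers is not stated, so whether the hexamers lie in the sisRNA is unknown.

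None of these records was rare. In the longer list auuaaa alone was recorded for 43 of 295 hosts (14.6%, exact 95% interval 10.8% to 19.1%), no hexamer for 74 (25.1%, 20.2% to 30.4%) and aauaaa alone for 80 (27.1%, 22.1% to 32.6%). In the counted list the numbers were 23, 44 and 24 of 140.

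Within its own class wal had the highest count and CG15738 the next to highest, while CG3267 was near the bottom. The 23 counted entries with auuaaa alone had 12 to 454 reads with a median of 48, and CG33217, next after wal, had 325 (291 to 362). Only 3 of them lay on 2R, namely wal, CG1399 with 201 reads and syb with 52. The 44 entries without a hexamer had 9 to 212 reads with a median of 36. CG2938 led them, and after CG15738 came the pyruvate kinase gene Pyk with 142 reads (120 to 167), whose interval overlapped that of CG15738. The 24 entries with aauaaa alone had 9 to 869 reads with a median of 60. CG11008 led this class with 869 reads (812 to 929), and CG3267 ranked 19. The 5 entries of this class on 2R were spred with 130 reads, CG3209 with 66, CG30020 with 48, RnrS with 34 and CG3267 with 21.

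**Figure D2:**
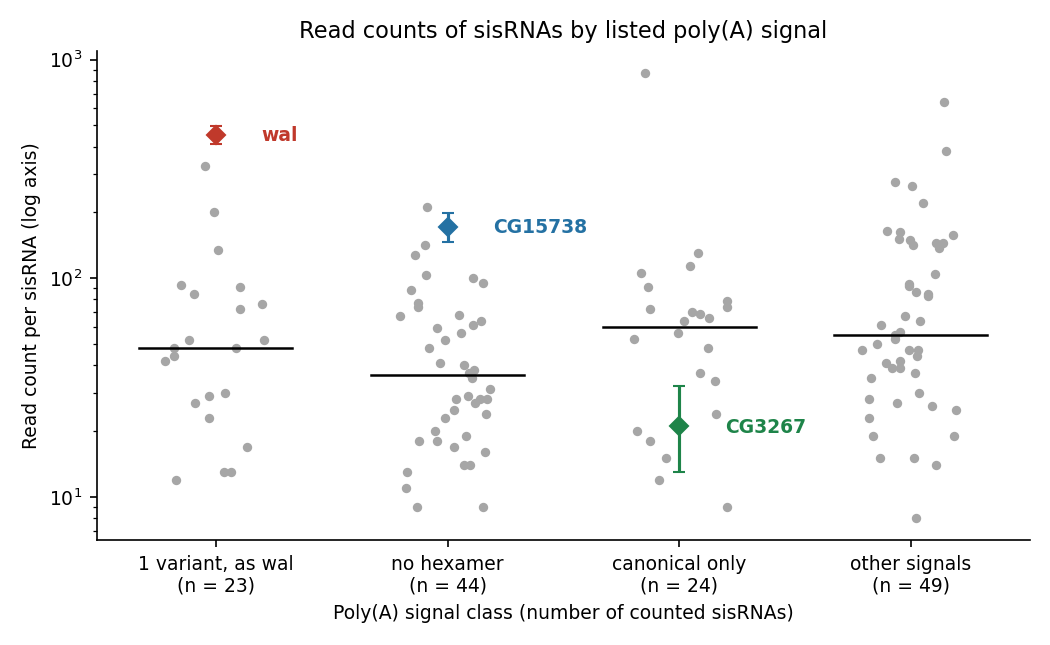
Read count per sisRNA (log axis) by the poly(A) signal recorded for the entry: the same single variant as wal (23 entries), no hexamer (44), the canonical signal alone (24) and all other combinations (49). Grey points are single sisRNAs, black lines are class medians, and diamonds show the members with exact Poisson 95% intervals. The members sit at the top, next to the top and near the bottom of their classes.

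On 2R the nearest listed centres on either side of wal were those of san, 328939 bases away with 17 reads, and RnrS, 294332 bases away with 34 reads. The wal count was 26.7 times that of san (16.5 to 46.3) and 13.4 times that of RnrS (9.42 to 19.5). The median distance to the nearest listed centre over the 22 entries of 2R, wal included, was this same 294332 bases. It is therefore no outside yardstick for wal.

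CG3267 showed the reverse, a low count between high ones. The actin-binding protein gene coro, 124584 bases away on the side of higher coordinates, had 275 reads, 13.1 times the count of CG3267 (8.40 to 21.5). This distance is under the median of 294332 bases for 2R. The nuclear pore gene gp210, 984668 bases away on the other side, had 222 reads, 10.6 times that of CG3267 (6.75 to 17.4).

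On X the nearest centre to CG15738 was that of CG15735, 127682 bases away, against a median of 163307 bases over the 42 entries of X. CG15735 was also recorded without a hexamer and had 40 reads (28.6 to 54.5), so the count of CG15738 was 4.3 times as high (3.03 to 6.23). CG2446, 179928 bases away on the other side, had 19 reads.

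The 3 hosts shared a gene structure that is compact beside that of the other hosts, which the choice of members did not use. In the BDGP6 annotation each of them has 3 introns, as do 16 of the 139 counted hosts that could be matched to it (11.5%, exact 95% interval 6.72% to 18.02%). Gene length was 2295 bases for wal, 2014 for CG15738 and 2574 for CG3267, against a median of 5216 over the 139 hosts and a lower quartile of 2850. The introns of wal are 68, 91 and 557 bases long from the 5′ end, those of CG15738 are 69, 326 and 234, and those of CG3267 are 59, 319 and 55. Intron 1 of wal lies outside the coding region, upstream of it, and the other 8 introns interrupt the coding region.

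**Figure D3:**
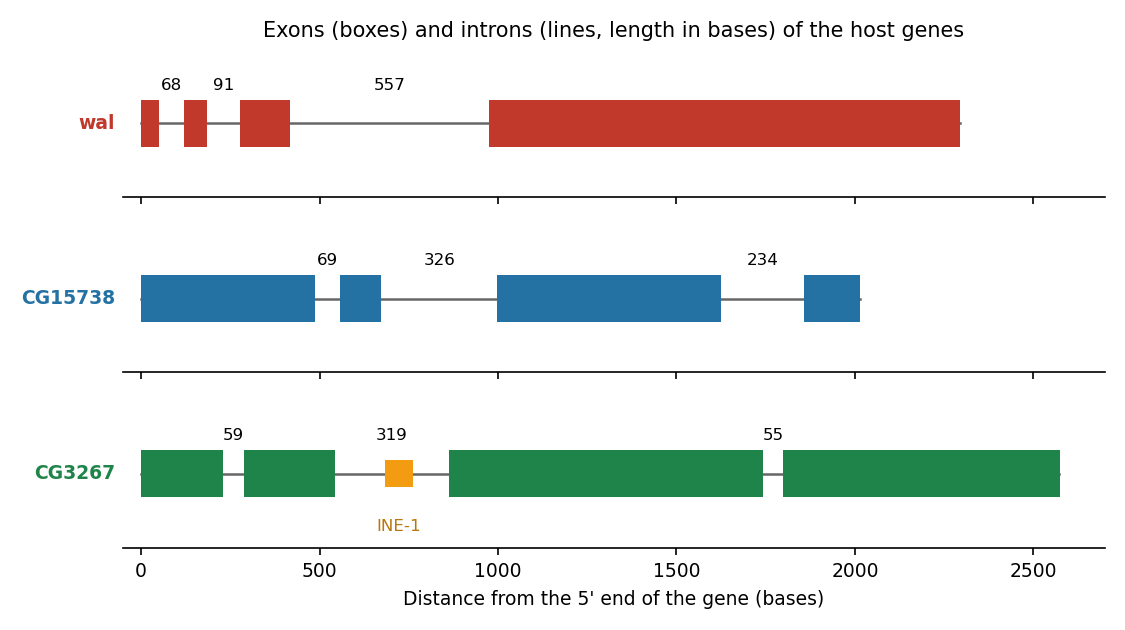
Exons (boxes) and introns (lines, with their length in bases) of the 3 host genes in the BDGP6 annotation, drawn to scale from the 5′ end of each gene, with all annotated transcripts merged. The orange box is the INE-1 copy of 80 bases in intron 2 of CG3267. In wal and CG3267 a single intron is far longer than the other two.

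Which intron holds each sisRNA was not determined, because the centres are given in dm3 and the annotation uses a later build. Every one of the 139 matched hosts has at least 1 intron of 217 bases or more, the smallest maximum being that of CG33260. Of the 11819 protein-coding genes with an intron, 5654 (47.8%) have no intron that long. The 217 bases were taken from these same hosts, so it was fixed in advance that no host falls below. Whether hosts need a minimum intron length was not tested. Of the 9 introns of the 3 members 4 reach 217 bases, namely intron 3 of wal, introns 2 and 3 of CG15738 and intron 2 of CG3267.

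The longest introns of the members were short beside those of the other hosts, though all 3 exceeded 254 bases, the median over the 11819 protein-coding genes with an intron. At 319 bases that of CG3267 was the 15th shortest of 139, and at 326 bases that of CG15738 was the 16th, against a median of 1065 bases and a lower quartile of 549. The longest intron of wal, 557 bases, was the 37th shortest. A total of 42 hosts had a longest intron under 600 bases, a limit set after the values were seen. These 42 had a median of 29.5 reads, against 56 for the other hosts. At least 100 reads were counted for 7 of the 42, and for 29 of all 139 hosts (20.9%, 14.4% to 28.6%). By count wal was 2 of these 42, after RpL35A, CG15738 was 4, after CG2938, and CG3267 was 28.

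**Figure D4:**
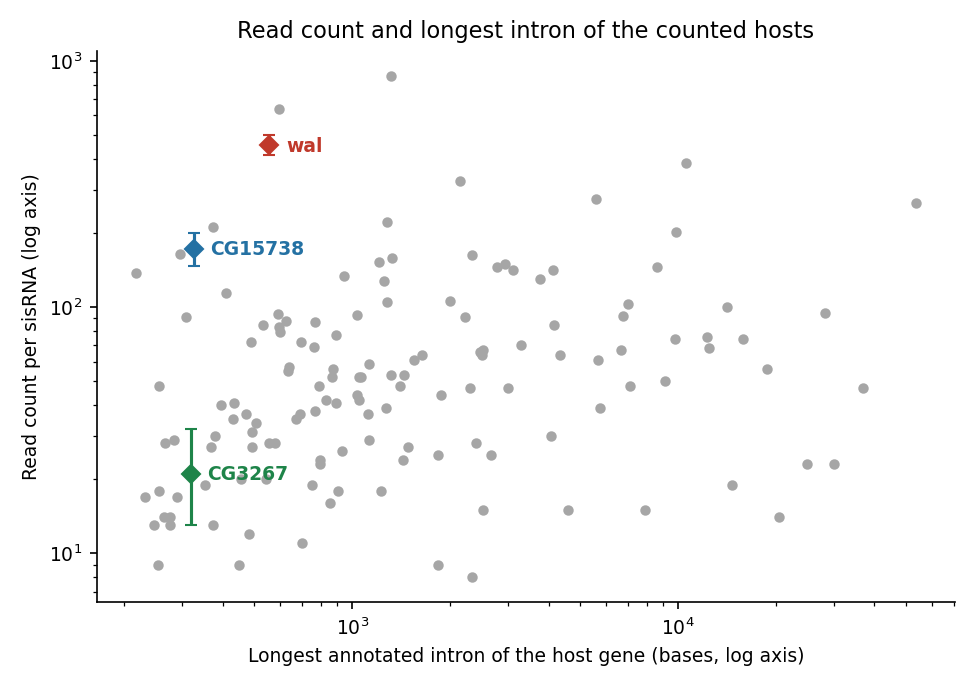
Read count per sisRNA against the longest annotated intron of its host gene, both on log axes, for the 139 matched hosts. Diamonds are the members with exact Poisson 95% intervals on the count. With longest introns of 557 and 326 bases, wal and CG15738 lie above most hosts with introns as short, and CG3267 lies among them.

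Divided by the length of the longest intron, the counts gave 815 reads per kilobase for wal (742 to 894), 528 for CG15738 (452 to 613) and 65.8 for CG3267 (40.8 to 101). The median over the 139 hosts was 44.1 reads per kilobase, with quartiles of 17.5 and 80.3. On this scale wal ranked 2, after RpL35A, CG15738 ranked 7 and CG3267 ranked 43. The interval of CG3267 includes that median, so on which side of it CG3267 lies was not resolved on this scale. By count its interval lay below the median of 48. Divided by the summed length of all introns, the values were 634 reads per kilobase for wal (577 to 695), 273 for CG15738 (234 to 317.5) and 48.5 for CG3267 (30.0 to 74.1), against a median of 19.3, and the ranks were 2, 8 and 34. On this scale the interval of CG3267 lay above the median, the reverse of its place by count. However, overlapping introns of different transcripts were each summed in full. Some sums therefore exceed the gene, as for CG33181 with 94046 bases in a gene of 27682. The introns of the members do not overlap, so the median and ranks on this scale favour them. Whether CG3267 lies above the median is thus not settled. Short introns raise a value per kilobase by construction, and each such value assumes that the sisRNA fills the introns taken.

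Per kilobase of longest intron, wal exceeded CG15738 by 1.55 times (1.29 to 1.85) and CG3267 by 12.4 times (8.002 to 20.2), and CG15738 exceeded CG3267 by 8.02 times (5.08 to 13.3). Whether wal and CG15738 differ on this scale depends on the intron assumed. If the CG15738 sisRNA fills intron 3 in place of intron 2, it has 735 reads per kilobase (629.3 to 853.5), and the ratio of wal to it is 1.11 with an interval of 0.928 to 1.33 that includes 1, so the difference is then within counting error. If it fills intron 1, of 69 bases, it has 2493 reads per kilobase (2134 to 2894), above the value of wal over intron 3. The other values depend on the intron as well. Over intron 1 or 3, CG3267 has 356 (220 to 544) or 382 (236 to 584) reads per kilobase. Over intron 1 or 2, wal has 6676 or 4989. The ratios to CG3267 and its rank of 43 thus hold for the longest introns only.

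Sequence features and neighbours of the hosts were then described. Intron 2 of CG3267 holds an annotated copy of INE-1, an old short transposable element found in many copies in the fly genome. The copy is 80 bases long, in the same orientation as the gene, and lies 140 bases after the start of the intron and 99 bases before its end, so that it fills 25.1% of it. An INE-1 copy lies in an intron of 12 of the 139 hosts (8.63%, 4.54% to 14.6%). Of these 12, CG3267 had the fewest reads and the shortest maximal intron, 319 bases against a median of 2713, while the others had 27 to 383 reads. Its last place by reads was not resolved, since the interval of CG11241 with 27 reads (17.8 to 39.3) overlapped that of CG3267. How multi-mapping reads were counted is not stated, and the part of the repeat in the count of CG3267 was not tested. The introns of wal and CG15738 hold no annotated transposable element.

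No annotated gene overlaps any of the 3 hosts on either strand, as is the case for 84 of the 139 hosts (60.4%). No member carries a remark of the authors, such as that on antisense transcripts, and neither do 127 of the 140 counted entries (90.7%). In both respects the members are thus like most of the list. Whether counting used strand is not stated. The gene on the 3′ side of wal, 11 bases away on the opposite strand, is Buffy, a Bcl-2 family gene. The gene on the 3′ side of CG15738, 197 bases away on the same strand, is wisp, which encodes the cytoplasmic poly(A) polymerase that lengthens maternal poly(A) tails at egg activation. The gene on the 3′ side of CG3267, 272 bases away on the same strand, is Eb1, which encodes a protein that binds the growing ends of microtubules. On the 5′ side the nearest genes are CG13197, CG1840 and phtf, at 421, 2545 and 239 bases. None of these 6 flanking genes is a listed host.

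The other genes of these pathways were looked up in both lists. Among 89 genes of 6 lists of mostly mitochondrial genes, all of which matched the annotation, 4 were in the longer list and all 4 had a read count. Outside the 3 members that leaves 1 of 86 genes (1.16%), beside 286 of the 11819 protein-coding genes with an intron (2.42%). With 1 gene in 86 this share carries no comparison.

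In the list of electron transfer flavoprotein, acyl-CoA dehydrogenases and fatty acid oxidation, wal was the only host of 14. The beta subunit CG7834 and the acceptor Etf-QO, the partners of the wal protein, were not listed. CG15738 was the only host among 8 complex I assembly factors, and none of 28 complex I subunits was listed. CG3267 was the only host among 9 genes of carboxylases and leucine breakdown, and CG2118, which encodes the other subunit of the same carboxylase, was not listed. None of 15 genes of complexes III to V, with Cyt-c-p counted among them, was listed.

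The citric acid cycle gave 1 host of 15, CG7998, annotated as the mitochondrial malate dehydrogenase gene Mdh2. Its sisRNA, centred near 14052821 on 3R, had 38 reads (26.9 to 52.2) and no recorded hexamer, so its count was below that of CG15738 and its interval overlapped that of CG3267. This host also has 3 introns, the longest of 767 bases. Absence from the lists says only that no sisRNA was recorded under that gene, since the rule that defined sisRNAs is not stated.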

How the data were processed

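RNA of unfertilized eggs was extracted with Trizol and sequenced as Illumina libraries, per the labels' protocols. The authors deposited whole-number read counts, 1 per sisRNA without normalization and with no library named, and other text columns with the arm, a centre coordinate and the hexamers. Coordinates are in dm3, the build that the submitters' processing notes name. The aligner, the counter, the treatment of strand and of multi-mapping reads, and the definition of a sisRNA are not given in the sources at hand.

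Members were found by symbol, without regard to case or bracketed remarks. The members and gene lists were chosen with earlier results of these data known. Named genes are the members, listed mitochondrial genes that are hosts, the members' neighbours by count and position, and the highest entry with the same hexamers. Others were named after their values were seen. Intervals at 95% are exact Poisson for a count, Clopper-Pearson for a share, and conditional binomial for a ratio, and were tested on simulated data. Gene structure came from Ensembl release 115 (BDGP6), matched by name or synonym on the listed arm for 139 of 140 counted hosts and 288 of 295 in all. No coordinate was moved between builds. No sequence beyond the hexamers is printed. Python 3.11.15, numpy 2.4.6 and scipy 1.17.1 were used.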

Additional observations from a re-analysis of the deposited data

How the results depend on the processing

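Ranks were expressed as the percentage of other entries with fewer reads, 98.6% for wal, 92.8% for CG15738 and 19.4% for CG3267. These and each member's share of listed reads were recomputed with a minimum of 10 or 20 reads, without the highest entry, without entries with a remark, without entries with 2 centres and without arm 2R. With the ratios between members and with values per intron length this gave 46 alternative values. Of these, 36 stayed within the interval of the main value, 7 moved beyond it and 3 turned the direction. For shares of reads and for ratios that interval covers counting error. For ranks it is the Clopper-Pearson interval of the percentage of other entries with fewer reads, 87.17% to 96.5% for CG15738. The rank interval treats the listed entries as random draws and holds no counting error of the reads. Dividing counts by the number of centres is not among the 46, since each member has 1 centre and its 3 ratios cannot move. Some of the 36 also had little room to move. A minimum of 10 or 20 reads removes only entries below wal and CG15738, so their ranks stay 3 and 11 by construction. Leaving out the highest entry, which is no member, must likewise give ranks 2, 10 and 112. The number 36 is therefore no measure of how robust the ranks are. A minimum of 20 reads lowered CG3267 to 1.75%, since it removes most entries below 21 reads. Without arm 2R, CG15738 moved to 96.6% and from 1.54% to 2.09% of listed reads, since that arm holds many high counts, and wal and CG3267 have no value there. The division by intron length was chosen after seeing the data. Per longest intron the ratio of wal to CG15738 moved to 1.55 and that of wal to CG3267 to 12.4, and per summed introns the latter moved to 13.1, as the intron of wal is longer. Per kilobase of intron 3 in both hosts the ratio of wal to CG15738 moved to 1.11, and with intron 1 of CG15738 it reversed to 0.327. By value CG3267 passed to the upper side of the list, with 69.6% of other hosts lower per longest intron and 76.1% per summed introns, as its introns are short. Per longest intron its interval included the median, so the turn on that scale was not resolved. The sums count overlapping introns of some other hosts more than once, which favours CG3267, so that turn is not settled either. No paired analysis was possible because there was only 1 library in every group and the counts name none of them. With 21 reads, the place of CG3267 among the low counts was not resolved.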

Other observations

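Among hosts of the longer list that act in mitochondria but belong to none of the 6 mitochondrial lists, mtSSB and rho-7 were noticed when the list was read. mtSSB, on 3R, encodes the single-stranded DNA-binding protein of mitochondrial DNA and was recorded with aauaaa and with auaaaa. rho-7, on 2R, encodes a rhomboid protease of the mitochondrial inner membrane, was recorded with auuaaa alone, as was wal, and carries the authors' remark on an antisense transcript. Neither has an entry in the counted list under its symbol, so no read count can be set beside those of wal, CG15738 and CG3267.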
